A study of Homo sapiens with 7 samples.

Results

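Libraries labelled RY were compared with libraries labelled KO, gene by gene, from raw read counts, to describe how the lineage genes of the RY line stood against those of the knockout line. RY has 3 libraries and KO has 2, so the comparison uses 5 of the 7 libraries of the study, chosen by their titles. All are bulk RNA-seq libraries labelled RPMI 8226, an established human line of multiple myeloma. Per the labels, RY cells carry substitutions at 2 residues of the zinc finger of HDAC6 that binds ubiquitin, written R1155A and Y1155A, both at position 1155. Different residues cannot share a position, so the 2 names cannot both be right as written. KO cells carry a knockout of HDAC6, and both lines were made with CRISPR-Cas9 and grown in RPMI 1640 medium with serum. The labels do not say whether either line is 1 clone, nor whether replicates come from separate cultures. The p-values therefore rest on a spread between libraries that may be only technical. Any difference between the lines that was there before editing, or that arose while a line was grown out, cannot be told apart from an effect of the edits. That the libraries labelled RY come from RPMI 8226 cells rests on the label alone and was not tested.

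Multiple myeloma is a cancer of plasma cells, the B-lineage cells that secrete antibody. Plasma cells are known for very high immunoglobulin mRNA, for the surface proteins CD138 (SDC1) and BCMA (TNFRSF17), and for the transcription factors IRF4, PRDM1 and XBP1, which hold the secretory program in place. RPMI 8226 is known for a translocation that brings the transcription factor gene MAF under the control of the immunoglobulin lambda locus. Granulocyte precursors, by contrast, are known for myeloperoxidase (MPO), for granule proteases and for the factor C/EBP alpha (CEBPA). HDAC6 is a mostly cytoplasmic deacetylase of tubulin whose zinc finger binds free ends of ubiquitin chains.

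The libraries labelled RY held 37530082, 38112341 and 31368968 counted reads, and the KO libraries 36670541 and 34768942. Levels are given as CPM, read counts of a gene relative to a library size scaled by the TMM method, and 3 reads over a group, used as the floor where a group had none, came to 0.0269 CPM over RY and 0.0447 CPM over KO. Floors and intervals cover counting error only. Across genes, log2 CPM correlated at 0.998 to 0.999 within RY, at 0.996 between the KO libraries and at 0.781 to 0.799 between the groups. The points of these correlations are genes, which are not independent of one another. A chi-square per gene ran from 7.88 to 16.3 within RY and was 27.8 within KO, more than sampling noise allows, and it ran from 534 to 654 between the groups.

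The targeted gene was higher in the libraries labelled RY than in KO. HDAC6 lies on the X chromosome at 48801377 to 48824982 (GRCh38, ENSG00000094631). Its level was 92.5, 114 and 98.5 CPM in the libraries labelled RY, against 19.6 and 13.2 CPM in the KO libraries. HDAC6 was 6.18-fold higher in RY (log2 fold change 2.63, SE 0.15, adjusted p = 1.32e-08). The groups did not overlap, which was so for 85.3% of all genes tested. Gene counts say nothing of the protein made from the transcripts left in KO, and they do not show the substitutions of RY.

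About 1 gene in 2 differed. Of 17697 genes tested, 8965 were called, or 50.7%, with a call defined as a Benjamini-Hochberg adjusted p under 0.05 in edgeR's quasi-likelihood test and a fold of at least 2. Without the fold minimum it would be 79.3%. Of the 8965, 4408 were higher in the libraries labelled RY (24.9% of genes tested) and 4557 were lower (25.8%). The median log2 fold change over all genes was -0.011, with quartiles at -1.07 and 1.03. A fold of at least 16 was reached by 1692 genes higher and 1889 genes lower in RY. Every list count below is to be read against these shares. The groups did not overlap for 15101 genes, or 85.3% of those tested. Where genes below are said to lie above or below the other group in every library, that share applies. A gene near 0 in one group entered the test only through its reads in the other, so counts over list members that were tested are descriptions, and the direction of such a gene was fixed by its being tested. The calls took up 18.8% ± 0.164 of reads (higher genes) and 7.18% ± 0.0849 (lower genes) in the libraries labelled RY (SD, n = 3), against 4.54% ± 0.0953 and 27.1% ± 1.32 in KO (SD, n = 2). Among the called genes with the highest CPM in RY was SLC7A5, an amino acid transporter, at 5054, 4182 and 4678 CPM in the libraries labelled RY, against 711 and 532 CPM in the KO libraries (7.41-fold higher, log2 fold change 2.90, SE 0.15, adjusted p = 4.04e-09). EEF1A1, the elongation factor of translation, stood at 5163, 5120.2 and 5332 CPM in the libraries labelled RY, against 12028 and 10259 CPM in the KO libraries. It was 2.15-fold lower, a call lost without KO replicate 1 (log2 fold change -0.99) and with library size as the only scaling (-0.95).

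**Figure D1:**
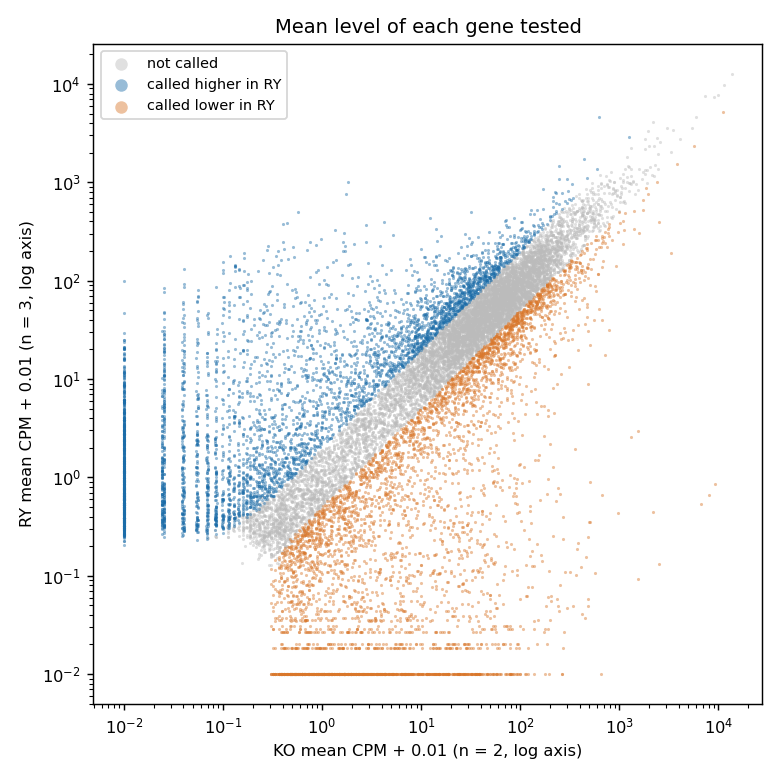
Mean level of each gene tested, chromosome Y left aside, on log axes of CPM + 0.01, with the libraries labelled RY (n = 3) on the vertical and the KO libraries (n = 2) on the horizontal axis. Blue points are genes called higher in RY and orange points genes called lower. The points along the lower edge had no reads in any library labelled RY, and those along the left edge none in KO.

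Genes were called at every level. By the mean of the group means, the share called was 69.1% of genes under 1 CPM, 67.1% between 1 and 10 CPM, 38.9% between 10 and 100 CPM and 27.3% from 100 CPM up. It was 47.1% of 13329 protein-coding genes and 72.1% of 1129 long intergenic RNAs. Lists of abundant genes are therefore to be read against the lower shares at their level, and no list was matched for level.

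The plasma cell program of the RPMI 8226 label was present in KO and largely absent from the libraries labelled RY. In bulk RNA, fewer cells of a type and less RNA per cell cannot be told apart. Of 27 plasma cell identity genes, 25 were tested, of which 21 were lower in RY, 2 were higher and 2 were not called, with a median log2 fold change of -3.83. CD27 and FCRL5 were not tested and had at most 1 read each over the 5 libraries. Summed over the list, RY libraries reached 1049.6 to 1085 CPM and KO libraries 7540 to 8725 CPM. SDC1, the surface proteoglycan by which plasma cells are sorted, stood at 0.0512, 0.0496 and 0 CPM in the libraries labelled RY, against 253 and 242 CPM in the KO libraries. TNFRSF17, the receptor BCMA, had 0 CPM in each library labelled RY, against 44.9 and 47.8 CPM in the KO libraries. The 3 libraries labelled RY thus had 4 SDC1 reads and 0 TNFRSF17 reads between them, where the KO libraries had 16621 and 3103. The libraries labelled RY thus lack the markers that define the labelled cell type, which the KO libraries carry, so they are called by their label and given no other cell type name.

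The transcription factors that define plasma cells followed. IRF4 was at 0.102, 0.596 and 0.34 CPM in the libraries labelled RY, against 616 and 401 CPM in the KO libraries. POU2AF1, a coactivator at immunoglobulin promoters, was at 0, 0 and 0.0309 CPM in the libraries labelled RY, against 161 and 137 CPM in the KO libraries. The 2 KO libraries lay far above all 3 labelled RY for both genes, with adjusted p = 1.58e-11 for IRF4 and 5.21e-13 for POU2AF1. PRDM1, the repressor Blimp-1 that ends the B cell program, kept a measurable level, 13.5, 11.7 and 10.6 CPM in the libraries labelled RY, against 66.7 and 62.2 CPM in the KO libraries (5.38-fold lower, log2 fold change -2.43, SE 0.11, adjusted p = 9.47e-10). XBP1, the factor of the secretory expansion, was the exception, at 329.8, 317 and 361 CPM in the libraries labelled RY, against 517 and 427 CPM in the KO libraries. It was 1.42-fold lower in RY, which missed the fold minimum.

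Genes of antibody assembly and secretion were lower too. MZB1, a chaperone of antibody chains, stood at 2.61, 3.65 and 2.69 CPM in the libraries labelled RY, against 1711 and 1383 CPM in the KO libraries (516-fold lower, log2 fold change -9.01, SE 0.16, adjusted p = 6.48e-13). JCHAIN, the joining chain of secreted IgA and IgM, stood at 0.179, 0.248 and 0.865 CPM in the libraries labelled RY, against 2306 and 2123 CPM in the KO libraries. Its level in RY replicate 3 was above that in the other 2, and the fold of 5506 became 10351 without that library. Among secretory genes with more reads in RY, FKBP11 was 18.1-fold lower, DERL3 10.4-fold lower and TENT5C, a poly(A) polymerase often mutated in myeloma, 14.3-fold lower. CD79A and EAF2 were the list members higher in RY. CD79A, a signalling chain of the B cell receptor, stood at 12.2, 11 and 13 CPM in the libraries labelled RY, against 1.33 and 1.17 CPM in the KO libraries. EAF2, a partner of a transcription elongation factor, stood at 27.5, 24.8 and 25.6 CPM in the libraries labelled RY, against 3.74 and 4.15 CPM in the KO libraries.

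Immunoglobulin mRNA was close to nil in the libraries labelled RY. The 213 annotated immunoglobulin genes took 0.000392%, 0.000449% and 0.000577% of all counted reads in the libraries labelled RY, which is 147, 171 and 181 reads, against 2.04% and 1.83% in the KO libraries, or 748375 and 634689 reads. The groups did not overlap, and a two-sided exact permutation test gave p = 0.2, the smallest that 3 libraries against 2 allow. Of 14 constant genes 11 were tested, and 10 were lower in RY. IGLC2, a lambda light chain constant gene, stood at 0.333, 0.521 and 1.7 CPM in the libraries labelled RY, against 9683 and 8745 CPM in the KO libraries. IGKC, the kappa constant gene, stood at 0.102, 0.0496 and 0.0618 CPM in the libraries labelled RY, against 251 and 256 CPM in the KO libraries. IGHG1, IGHG2, IGHG3, IGHG4, IGHA1, IGHA2 and IGLC7 had 0 reads in all 3 libraries labelled RY, while IGHG4 had 13194 reads and IGHG2 7766 reads over the KO libraries. IGHM, the heavy chain of unswitched B cells, went the other way, with 0.384, 0.174 and 0.278 CPM in the libraries labelled RY, against 0 CPM in both KO libraries (adjusted p = 0.000935). Constant genes of a class are near-identical copies, so the split of reads among them is uncertain, which does not touch the sum over the locus.

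**Figure D2:**
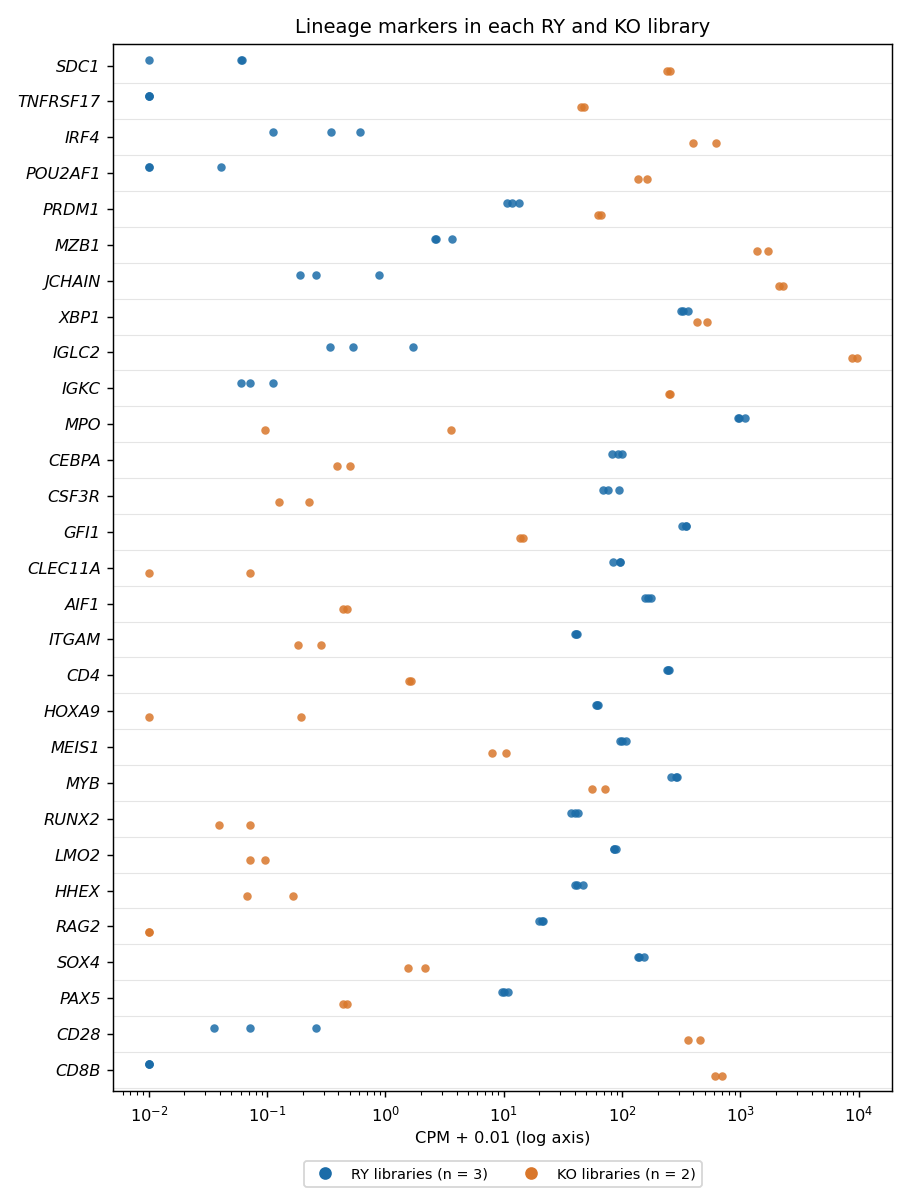
Level of 29 lineage markers in each library, as CPM + 0.01 on a log axis, with the libraries labelled RY in blue (n = 3) and the KO libraries in orange (n = 2). The 29 were picked by hand and do not stand for whole lists. Members that went against the genes shown from their lists are left out, among them CD79A, EAF2, SRGN, CYBB, CD9, BLK, BLNK and CR2. From SDC1 to IGKC at the top, the KO libraries lie to the right, least far for XBP1, where both groups lie between 317 and 517 CPM; from MPO to PAX5 the libraries labelled RY lie to the right; and for CD28 and CD8B at the foot the KO libraries do.

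MAF was lower in RY as well, and the genes known to be driven by it in myeloma went both ways. Of 15 genes on that list, MAF included, 13 were tested, 7 were lower in RY, 3 higher (SGK1, ANXA1 and PTPRJ, named after their values were seen) and 3 not called. MAF (chromosome 16, 79585843 to 79600714) stood at 0.0768, 0.0496 and 0.124 CPM in the libraries labelled RY, against 1627 and 1474 CPM in the KO libraries. ITGB7, an integrin subunit that holds myeloma cells to stroma, was at 0.435, 0.422 and 0.71 CPM in the libraries labelled RY, against 6999 and 6388 CPM in the KO libraries (13138-fold lower, log2 fold change -13.67, SE 0.18, adjusted p = 2.31e-13). The libraries labelled RY had 9 MAF reads between them and the KO libraries 104134. The chemokine receptor genes CX3CR1 and CCR1 were 40.7-fold lower and 49.2-fold lower, and ARID5A, an RNA-binding regulator, was 12.4-fold lower. Of 13 tested genes that encode surface targets of myeloma therapy or adhesion, 8 were lower and 3 higher in RY. GPRC5D, a target of antibody therapy, stood at 0.0256, 0.0745 and 0.0309 CPM in the libraries labelled RY, against 17.5 and 20.4 CPM in the KO libraries. CD38, an enzyme on the plasma cell surface, stood at 5.56, 4.22 and 4.54 CPM in the libraries labelled RY, against 65.6 and 31.5 CPM in the KO libraries, and its fold of 10.3 was 6.58 without KO replicate 1. CD74, the class II invariant chain, was 2.15-fold lower, and did not reach the fold minimum with library size as the only scaling (log2 fold change -0.96).

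Genes of mature B cells were split. Of 18 tested, 7 were higher and 9 lower in RY, with a median log2 fold change of -1.26 and overlapping sums of 437.6 to 476.0 CPM in RY and 409.7 to 471.0 CPM in KO. LYN, a kinase of B and myeloid cells, stood at 140.1, 116 and 129.7 CPM in the libraries labelled RY, against 4.81 and 5.01 CPM in the KO libraries (26.2-fold higher, log2 fold change 4.71, SE 0.12, adjusted p = 6.92e-12). PAX5, the factor of B cell commitment, was at 9.98, 9.63 and 10.8 CPM in the libraries labelled RY, against 0.463 and 0.43 CPM in the KO libraries (22.5-fold higher, log2 fold change 4.49, SE 0.22, adjusted p = 2.83e-09). EBF1, which acts with it, was at 2.1, 2.04 and 2.19 CPM in the libraries labelled RY, against 0 CPM in both KO libraries. CD22, an inhibitory receptor, had 5.07, 4.84 and 5.53 CPM in the libraries labelled RY, against 0 CPM in both KO libraries. Each of these 4 was above its KO level in all 3 libraries labelled RY. In the other direction, BLK, a B cell kinase, was at 2.38, 3.03 and 2.69 CPM in the libraries labelled RY, against 111 and 96.9 CPM in the KO libraries. BLNK, an adaptor of the B cell receptor, was at 0.768, 1.17 and 0.865 CPM in the libraries labelled RY, against 74.4 and 56.4 CPM in the KO libraries. CR2, the complement receptor CD21, was at 0, 0.0496 and 0.0618 CPM in the libraries labelled RY, against 62.2 and 51.3 CPM in the KO libraries. All 3 were lower in every library labelled RY, BLK 38.5-fold lower and BLNK 69.9-fold lower. MS4A1, which encodes CD20, was at 0.0256, 0 and 0 CPM in the libraries labelled RY, against 0.666 and 0.584 CPM in the KO libraries.

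Genes of early lymphoid development went both ways. Of 14 on the list 9 were tested, 6 higher, 1 lower and 2 not called, while the summed level of the list was lower, at 476.9 to 490.6 CPM in RY and 621 to 674.7 CPM in KO. CD9 alone held 434 and 336 CPM of the KO sums, and the other members summed to more in RY than in KO. RAG2, a subunit of the recombinase that joins antigen receptor gene segments, had 21.4, 21.1 and 19.9 CPM in the libraries labelled RY, against 0 CPM in both KO libraries (adjusted p = 1.59e-10). SOX4, a factor of early B cells, stood at 138, 152 and 138 CPM in the libraries labelled RY, against 1.54 and 2.15 CPM in the KO libraries (78-fold higher, log2 fold change 6.28, SE 0.14, adjusted p = 2.76e-12). DNTT, the polymerase that adds bases at the joins, stood at 1.05, 1.17 and 1.36 CPM in the libraries labelled RY, against 0.029 and 0 CPM in the KO libraries. RAG1, the partner of RAG2, was called at 2.26-fold higher, a call lost without KO replicate 2 (log2 fold change 0.84). CD9, a tetraspanin, was lower, at 0.179, 0.248 and 0.185 CPM in the libraries labelled RY, against 434 and 336 CPM in the KO libraries. VPREB1, IGLL1 and LEF1 had too few reads to test, so the surrogate light chain that marks pre-B cells was not detectable as a level in either group.

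Granulocyte precursor genes were higher in the libraries labelled RY, many of them from a level near 0 in KO. Of 20 genes on that list, 18 were tested, 15 were higher, 1 was lower and 2 were not called, with a median log2 fold change of 7.84. Their summed level ran from 1999.8 to 2193 CPM in RY and from 329 to 347 CPM in KO. MPO (chromosome 17, 58269856 to 58280935), the peroxidase of primary granules, stood at 953, 1089 and 973 CPM in the libraries labelled RY, against 0.0869 and 3.6 CPM in the KO libraries. All 3 libraries labelled RY lay above 950 CPM, while the KO libraries differed widely from each other, and the fold of 563 was 280.2 without KO replicate 1 and 11599 without KO replicate 2. CEBPA, the transcription factor that commits cells to the granulocyte line, was at 93.1, 82.7 and 99.3 CPM in the libraries labelled RY, against 0.377 and 0.492 CPM in the KO libraries (211-fold higher, log2 fold change 7.72, SE 0.17, adjusted p = 2.69e-12). CSF3R, the receptor for the granulocyte growth factor G-CSF, was at 69.1, 93.6 and 75.8 CPM in the libraries labelled RY, against 0.116 and 0.215 CPM in the KO libraries (487-fold higher, log2 fold change 8.89, SE 0.25, adjusted p = 1.89e-11). GFI1, a repressor needed for neutrophils, was at 319, 345 and 349 CPM in the libraries labelled RY, against 13.6 and 14.6 CPM in the KO libraries (24-fold higher, log2 fold change 4.59, SE 0.10, adjusted p = 2.69e-12).

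Several granule protein genes of the list had at most 1 read in each KO library. CTSG, the protease cathepsin G, had 15.5, 18.1 and 19 CPM in the libraries labelled RY, against 0 CPM in both KO libraries. RNASE2, an eosinophil ribonuclease, had 11.4, 12.4 and 11.5 CPM in the libraries labelled RY, against 0 and 0.0307 CPM in the KO libraries. RNASE3, its near copy, had 0.512, 0.645 and 0.525 CPM in the libraries labelled RY, against 0 CPM in both KO libraries, and the split of reads between the pair is uncertain. AZU1, an antimicrobial granule protein, had 1.92, 3.8 and 1.79 CPM in the libraries labelled RY, against 0 and 0.0307 CPM in the KO libraries. All 4 stood above both KO libraries in every library labelled RY. ELANE, neutrophil elastase, stayed under 1 CPM in every library, and PRTN3, a further granule protease, had too few reads to test. LYZ, lysozyme, stood at 0.794, 0.968 and 0.834 CPM in the libraries labelled RY, against 0 CPM in both KO libraries. CLEC11A, a growth factor for blood progenitors, had 83.9, 96.8 and 96.5 CPM in the libraries labelled RY, against 0 and 0.0615 CPM in the KO libraries. FUT4, which makes the CD15 sugar, had 88.8, 88.4 and 84.8 CPM in the libraries labelled RY, against 0.029 and 0.246 CPM in the KO libraries. IGFBP2, which binds insulin-like growth factors, had 132, 112 and 132 CPM in the libraries labelled RY, against 0.0579 and 0.184 CPM in the KO libraries. For these 3 genes both KO libraries were under 1 CPM and all 3 labelled RY well above it. SRGN, the granule proteoglycan also made by plasma cells, was the member that was lower, at 17.4, 18.2 and 15.6 CPM in the libraries labelled RY, against 222 and 216 CPM in the KO libraries (12.8-fold lower, log2 fold change -3.68, SE 0.08, adjusted p = 3.83e-12). CD33, a myeloid surface receptor, was present in both groups, at 99.7, 122 and 107 CPM in the libraries labelled RY, against 59.6 and 53.2 CPM in the KO libraries. Its fold of 1.94 missed the minimum but passed it without RY replicate 1 or without KO replicate 1, at a log2 fold change of 1.03 each.

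For the granulocyte genes, the 250 bases before the start site were searched for the spaced half-sites of C/EBP factors, written TTGCNNAA, on both strands, in RefSeq promoters on GRCh38.p14. Of the 15 members called higher 12 had a promoter in the table, and 4 of the 12 held a match in the first window listed for the gene, where 9.13% of all 27305 genes in the table did, counted the same way. The 4 are printed with the match in capitals, which for AZU1 is on the other strand, because CEBPA was among the genes higher in RY and these are the members whose windows hold the letters. RNASE2 and RNASE3 share the match TTGCACAA in nearly the same surroundings, so they are not independent of each other.
AZU1 (chr19:827587-827836, plus strand): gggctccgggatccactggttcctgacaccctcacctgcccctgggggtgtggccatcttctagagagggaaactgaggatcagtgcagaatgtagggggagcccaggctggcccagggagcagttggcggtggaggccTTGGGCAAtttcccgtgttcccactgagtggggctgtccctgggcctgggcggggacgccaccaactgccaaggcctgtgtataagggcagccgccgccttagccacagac
CSF3R (chr1:36483315-36483564, minus strand): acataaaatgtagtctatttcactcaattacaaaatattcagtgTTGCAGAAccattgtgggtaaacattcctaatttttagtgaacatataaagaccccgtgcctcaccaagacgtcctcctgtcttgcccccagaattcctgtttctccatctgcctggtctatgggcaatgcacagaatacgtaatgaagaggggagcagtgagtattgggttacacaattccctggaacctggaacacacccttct
RNASE2 (chr14:20955237-20955486, plus strand): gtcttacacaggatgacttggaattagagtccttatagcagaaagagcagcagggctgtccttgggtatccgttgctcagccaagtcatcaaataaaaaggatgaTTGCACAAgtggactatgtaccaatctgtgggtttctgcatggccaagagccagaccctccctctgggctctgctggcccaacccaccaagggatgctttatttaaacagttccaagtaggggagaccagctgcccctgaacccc
RNASE3 (chr14:20891135-20891384, plus strand): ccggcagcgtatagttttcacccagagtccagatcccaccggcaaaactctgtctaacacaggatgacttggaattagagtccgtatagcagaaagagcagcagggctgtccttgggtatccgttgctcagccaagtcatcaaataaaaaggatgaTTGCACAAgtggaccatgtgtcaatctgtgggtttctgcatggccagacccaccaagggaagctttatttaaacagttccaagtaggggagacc
A match describes the letters and is no evidence of binding. The palindrome TTGCGCAA, which lies within the searched pattern, was in 0.11% of all genes and in 0 of the 12. The PU.1 core GAGGAAGT was in 2.13% of all genes and in 0 of the 12. Among members called higher with a promoter, TTGCNNAA was in 1 of 7 monocyte and macrophage genes and 1 of 10 stem and progenitor genes. A link between these letters and CEBPA was not tested. The octamer ATGCAAAT of immunoglobulin promoters was in 1.66% of all genes and in 1 of the 16 plasma cell genes lower in RY that had a promoter in the table, SEL1L3, a membrane protein gene of secretory cells.

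More monocyte and macrophage genes were higher than lower. Of 14 tested, 9 were higher, 2 lower and 3 not called. AIF1, the actin-binding protein Iba1, stood at 156, 175 and 164 CPM in the libraries labelled RY, against 0.463 and 0.43 CPM in the KO libraries (369-fold higher, log2 fold change 8.52, SE 0.14, adjusted p = 4.98e-13). ITGAM, the integrin CD11b of myeloid cells, was at 40.0, 42 and 40.5 CPM in the libraries labelled RY, against 0.174 and 0.277 CPM in the KO libraries (183-fold higher, log2 fold change 7.49, SE 0.18, adjusted p = 5.66e-12). ITGB2, its partner subunit, was at 489.9, 373 and 424 CPM in the libraries labelled RY, against 14.2 and 10.2 CPM in the KO libraries (35-fold higher, log2 fold change 5.14, SE 0.17, adjusted p = 8.16e-11). Both subunits of that integrin were thus higher together in every library labelled RY. FCGR1A, a high-affinity antibody receptor, had 4.28, 2.95 and 4.2 CPM in the libraries labelled RY, against 0 CPM in both KO libraries. CYBB, the catalytic subunit of the phagocyte oxidase, was lower, at 3.05, 2.41 and 2.41 CPM in the libraries labelled RY, against 207 and 141 CPM in the KO libraries (66.5-fold lower, log2 fold change -6.05, SE 0.17, adjusted p = 1.89e-11). The markers of mature monocytes were at or near 0 in both groups. CD14 stood at 0.282, 0.223 and 0.0927 CPM in the libraries labelled RY, against 0.406 and 0.154 CPM in the KO libraries. S100A8, FCN1 and FCGR3A had 0 reads in all 5 libraries, and CSF1R, the macrophage growth factor receptor, stayed under 1 CPM. Sums over the list overlapped, at 212.5 to 232.4 CPM in RY and 157.5 to 225.9 CPM in KO. CYBB alone held 207 and 141 CPM of the KO sums, and the other members summed to more in RY than in KO.

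More genes of blood stem and progenitor cells were higher than lower in RY. Of 19 tested, 12 were higher, 2 lower and 5 not called. MYB, a factor of dividing progenitors, stood at 286, 292 and 260.4 CPM in the libraries labelled RY, against 55.2 and 71.2 CPM in the KO libraries (4.46-fold higher, log2 fold change 2.14, SE 0.11, adjusted p = 5.59e-09). MEIS1, which acts with HOX proteins, stood at 99.4, 109 and 95.8 CPM in the libraries labelled RY, against 10.5 and 7.87 CPM in the KO libraries (11-fold higher, log2 fold change 3.46, SE 0.13, adjusted p = 1.83e-10). ANGPT1, a ligand made by stem cells and their niche, was 10.1-fold higher, and SPI1, the factor PU.1, 2.34-fold higher. RUNX2, a factor best known from bone, had 39.7, 42.3 and 37.3 CPM in the libraries labelled RY, against 0.029 and 0.0615 CPM in the KO libraries. RUNX1, its relative in blood stem cells, was at 153, 159 and 148 CPM in the libraries labelled RY, against 78.4 and 77.1 CPM in the KO libraries. RUNX1 missed the fold minimum (log2 fold change 0.98, or 1.00 without RY replicate 3). CD34, a surface protein of stem cells, stood at 3.38, 5.58 and 4.97 CPM in the libraries labelled RY, against 0 CPM in both KO libraries. KIT, a growth factor receptor of the same cells, stood at 1.97, 2.8 and 2.35 CPM in the libraries labelled RY, against 0 CPM in both KO libraries. FLT3 and PROM1, further receptors and surface markers of progenitors, were not tested.

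The HOXA genes, which are on in early blood cells and shut off as they mature, were higher in RY, and the HOXB genes that could be tested were lower. All 11 HOXA genes on the list were called higher and all 4 HOXB genes that were tested (HOXB3, HOXB4, HOXB7 and HOXB9) were called lower, where 24.9% of all genes were called higher and 25.8% lower. Genes at or near 0 in one group, such as HOXA3, HOXA5, HOXA6 and HOXB4, were tested only through their reads in the other. Their direction was thus fixed by being tested, and these counts are descriptions. The other 4 HOXB genes were not tested, with at most 13 reads each. HOXA9, which marks blood stem cells, stood at 59.8, 61.3 and 62.6 CPM in the libraries labelled RY, against 0 and 0.184 CPM in the KO libraries. HOXA10, its neighbour, stood at 51.3, 52.6 and 50.8 CPM in the libraries labelled RY, against 0.029 and 0.0307 CPM in the KO libraries. HOXA13, the last gene of the cluster, stood at 69.1, 70.1 and 63.6 CPM in the libraries labelled RY, against 0 and 0.277 CPM in the KO libraries. The 3 libraries labelled RY lay close together for each of these, and both KO libraries were under 1 CPM. HOXA3, HOXA5 and HOXA6 had 0 reads in KO and levels of 6.56 ± 0.209, 11.9 ± 0.283 and 6.19 ± 0.536 CPM in the libraries labelled RY (SD, n = 3). HOXB4, chosen after its values were seen, had 0.0256, 0 and 0 CPM in the libraries labelled RY, against 7.62 and 7.47 CPM in the KO libraries. Genes within a HOX cluster lie side by side and are often regulated together, so these are not 15 separate observations.

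**Figure D3:**
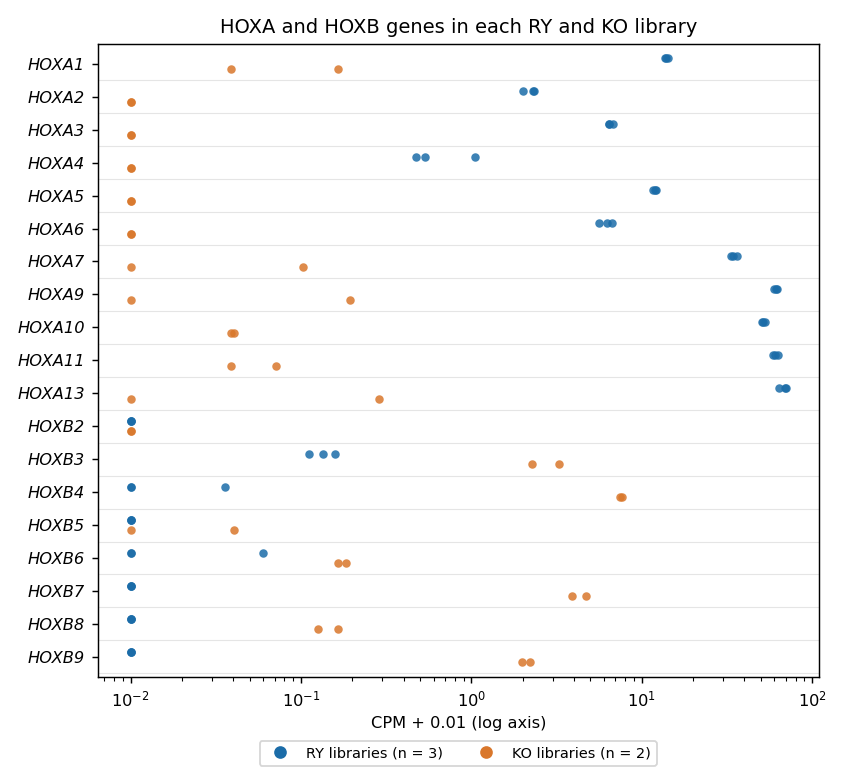
Level of the 11 HOXA and 8 HOXB genes of the list in each library, as CPM + 0.01 on a log axis, with the libraries labelled RY in blue (n = 3) and the KO libraries in orange (n = 2). For each HOXA gene the libraries labelled RY lie to the right, and for HOXB3, HOXB4, HOXB7 and HOXB9 the KO libraries do.

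Most T cell genes tested were lower, and most genes of T cell specification were higher. Of 15 T cell genes tested, 11 were lower in RY and 4 higher. CD8B, a T cell coreceptor chain, had 0 CPM in each library labelled RY, against 705 and 607 CPM in the KO libraries. CD28, the costimulatory receptor that plasma cells can also carry, had 0.0256, 0.248 and 0.0618 CPM in the libraries labelled RY, against 456 and 359.6 CPM in the KO libraries. The libraries labelled RY had no CD8B read, where KO had 44069, although a near copy of the gene leaves their split uncertain. CD4, a coreceptor shared by T cells and the monocyte line, was higher, at 250.1, 239.7 and 244 CPM in the libraries labelled RY, against 1.65 and 1.57 CPM in the KO libraries (152-fold higher, log2 fold change 7.24, SE 0.12, adjusted p = 4.44e-13). TRGC1, a constant gene of the gamma T cell receptor, had 4.92, 6.16 and 5.93 CPM in the libraries labelled RY, against 0 CPM in both KO libraries. CD3D, CD3E, LCK and TRAC, which define T cells, were not tested and had at most 38 reads. Of 14 specification genes tested, 10 were higher and 3 lower. LMO2, LYL1 and HHEX, which act in blood progenitors as well as in early T cells, were among those higher. So were TOX, GATA3, BCL11B and NOTCH3, at log2 fold changes of 9.38, 8.11, 7.1 and 4.97, all near 0 in KO, and TAL1, LMO1 and MEF2C. TCF7 (log2 fold change -4.35) and HES1 (-1.08, a call lost under some alternatives) were lower. LMO2 stood at 85.1, 88.8 and 86.2 CPM in the libraries labelled RY, against 0.0869 and 0.0615 CPM in the KO libraries (1164-fold higher, log2 fold change 10.12, SE 0.18, adjusted p = 5.7e-13). LYL1 was 7.34-fold higher. HHEX stood at 41.6, 39.7 and 46.7 CPM in the libraries labelled RY, against 0.0579 and 0.154 CPM in the KO libraries. NOTCH1, the receptor that starts the T cell program, was lower, at 51, 46.1 and 51.5 CPM in the libraries labelled RY, against 184 and 212 CPM in the KO libraries (4.01-fold lower, log2 fold change -2.00, SE 0.09, adjusted p = 7.96e-10).

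Natural killer and epithelial lists went opposite ways. Of 8 natural killer genes tested 7 were higher in RY. KLRF1, an activating receptor, had 8.91, 8.44 and 9.55 CPM in the libraries labelled RY, against 0 CPM in both KO libraries. CD244, a receptor also found on myeloid cells, had 6.4, 8.09 and 7.04 CPM in the libraries labelled RY, against 0 CPM in both KO libraries. Among cytotoxic genes, PRF1, which encodes perforin, had 1.2, 1.89 and 1.67 CPM in the libraries labelled RY, against 0 CPM in both KO libraries (adjusted p = 3.62e-06). NKG7, a granule membrane protein, had 3.28, 3.67 and 3.27 CPM in the libraries labelled RY, against 0.029 and 0 CPM in the KO libraries (adjusted p = 7.86e-08). The granzyme genes GZMA and GZMB and the receptor gene KLRD1 had 0 reads in every library. NCAM1, the antigen CD56, stood at 99, 96.6 and 93.9 CPM in the libraries labelled RY, against 53.7 and 42.3 CPM in the KO libraries. It was called at a fold of 2.01 that went under the minimum without RY replicate 1, without KO replicate 2, with RLE size factors and in DESeq2. Of 12 epithelial genes tested 10 were lower and 1 higher, with sums of 19.9 to 22.3 CPM in RY and 1034.5 to 1038.7 CPM in KO. DSP, a plaque protein of desmosomes, had 0.0768, 0.0248 and 0.185 CPM in the libraries labelled RY, against 557 and 578 CPM in the KO libraries. DSG2, a cadherin of the same junctions, had 0 CPM in each library labelled RY, against 269 and 264 CPM in the KO libraries. KRT14, a keratin of basal epithelium, was the epithelial gene higher in RY, at 7.19, 6.33 and 8.99 CPM in the libraries labelled RY, against 0 CPM in both KO libraries.

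Dendritic, erythroid, stromal and neural lists gave few genes. Of 6 dendritic genes tested 4 were lower and 1 higher in RY. TCF4, the factor of plasmacytoid dendritic cells, stood at 74.4, 56.9 and 67.2 CPM in the libraries labelled RY, against 497 and 391 CPM in the KO libraries (6.75-fold lower, log2 fold change -2.75, SE 0.12, adjusted p = 1.15e-09). Of 20 erythroid and megakaryocytic genes 7 were tested, 3 higher and 2 lower, and GATA1, HBB and PF4 had 0 reads in all 5 libraries. Of 14 fibroblast and endothelial genes 4 were tested. FN1, fibronectin, was lower, at 0.461, 0.472 and 1.02 CPM in the libraries labelled RY, against 436 and 906 CPM in the KO libraries, with KO replicate 2 well above KO replicate 1. COL1A1, a collagen chain, was higher, at 9.04, 10.2 and 10.7 CPM in the libraries labelled RY, against 2.49 and 1.17 CPM in the KO libraries, and its fold was 8.5 without KO replicate 1. COL3A1, DCN, LUM and KDR, which define those cells, had 0 reads. Of 7 neural genes tested 4 were higher and 2 lower. NEGR1, a neuronal adhesion protein, was at 35.5, 42 and 38.6 CPM in the libraries labelled RY, against 1.82 and 0.676 CPM in the KO libraries. GRIA4, a glutamate receptor subunit, was at 0 CPM in each library labelled RY, against 89.5 and 77 CPM in the KO libraries.

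**Figure D4:**
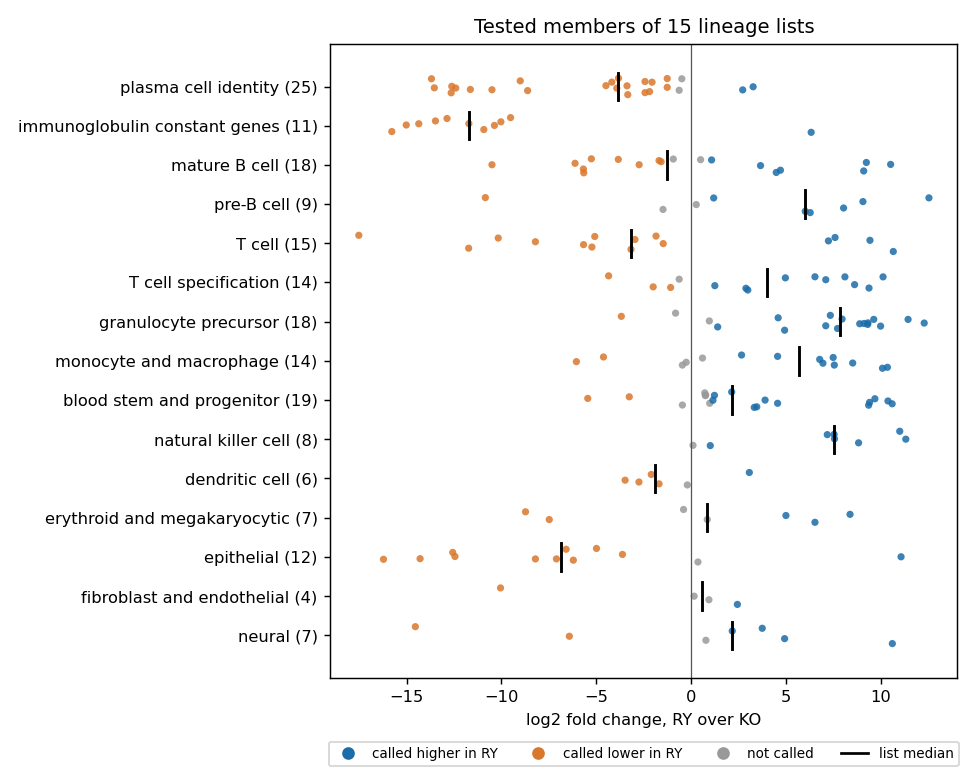
Log2 fold change of every tested member of the 15 lineage lists, RY over KO, with the number tested in brackets. Blue points were called higher in RY, orange points lower, grey points were not called, and the black bar is the list median, from -11.72 for immunoglobulin constant genes to 7.84 for granulocyte precursor genes.

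Many genes were on in one group and off in the other. With on set at a mean of at least 10 CPM and off at under 0.1 CPM in every library of the other group, and chromosome Y left aside, 149 genes (0.842% of genes tested) were on in RY and off in KO, and 360 genes (2.03%) were on in KO and off in RY. Of the first, 130 were protein-coding and 37 had no read in KO. Of the second, 307 were protein-coding and 182 had no read in RY. These counts move with the limits, as given in the closing section. Over 385 genes with at least 20 CPM in KO and under 1% of that in RY, the median level in RY was 0%, 0.0176% and 0.0444% of the KO level in replicates 1, 2 and 3. Over 214 genes of the reverse kind, KO replicate 1 reached a median of 0.109% of the level in RY and KO replicate 2 one of 0.289%. The part of that difference between the KO replicates in single genes was not tested.

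Among genes that averaged 5 CPM or more where higher, leaving aside those known only by a gene ID, a clone name or a LINC name, the largest changes by fitted log2 fold change had no reads on one side. The largest increases of this kind were CLEC2A, CAVIN2, OTOF, CDK6-AS1, CHST10, ABHD17B, RUSC2 and RAG2, all with 0 reads in KO. CLEC2A, a lectin-like surface protein, had 45.5, 47 and 46.6 CPM in the libraries labelled RY, against 0 CPM in both KO libraries. CAVIN2, a coat protein of caveolae, had 26.7, 32.9 and 29.4 CPM in the libraries labelled RY, against 0 CPM in both KO libraries. CDK6-AS1, an antisense RNA at the CDK6 locus, had 22.1, 28.6 and 24.3 CPM in the libraries labelled RY, against 0 CPM in both KO libraries. The libraries keep the strand, but the strand setting of the counting is not given in the sources used here. Reads of the antisense RNA and of CDK6 may therefore not be fully apart. The largest decreases of this kind were CD8B, DSG2, IGHG4, TEAD1, BLMH, EGFL7, IGHG2 and SYNM, all with 0 reads in RY. TEAD1, a transcription factor of the Hippo pathway, had 0 CPM in each library labelled RY, against 201 and 158 CPM in the KO libraries. BLMH, a cytosolic peptidase, had 0 CPM in each library labelled RY, against 132 and 147 CPM in the KO libraries. EGFL7, a secreted vascular protein, had 0 CPM in each library labelled RY, against 131 and 107 CPM in the KO libraries. For each of these 3 the KO libraries lay close together. Against the floor, CD8B was at least 24478-fold lower and CLEC2A at least 1036.2-fold higher in RY, bounds that a missing library of the group at 0 lowers by construction.

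Some on genes lay next to one another. Among protein-coding genes with at least 5 CPM, 4 runs of 3 or more neighbours were on in RY and off in KO. They were HOXA3, HOXA5, HOXA6 and HOXA7 on chromosome 7, and 3 runs on chromosome 12. The first, from 9715860 to 9845007, held CLECL1P, the activation marker CD69 and KLRF1, and the second, from 9898673 to 10018619, CLEC2A, CLEC12A and CLEC12B. Both are part of the natural killer gene complex of lectin-like receptors. CD69 stood at 77, 69.8 and 82 CPM in the libraries labelled RY, against 0 and 0.0307 CPM in the KO libraries. CLEC12A, an inhibitory receptor of myeloid cells, stood at 67.2, 79.6 and 62.5 CPM in the libraries labelled RY, against 0 and 0.0922 CPM in the KO libraries. The third, from 70515866 to 71586310, held PTPRB, TSPAN8 and LGR5. In the other direction, runs on in KO and off in RY included PCP4, BACE2 and FAM3B on chromosome 21 and ZNF354A, ZNF354B and ADAMTS2 on chromosome 5. BACE2, a membrane protease, had 0, 0 and 0.0309 CPM in the libraries labelled RY, against 90.1 and 102 CPM in the KO libraries.

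Few deacetylase genes were called. Of 17 histone deacetylases and sirtuins other than HDAC6, 2 were higher, 1 was lower and 14 were not called, or 3 called of 17, where 50.7% of all genes were called. The share was lower among abundant genes, at 38.9% between 10 and 100 CPM and 27.3% from 100 CPM up. HDAC2, a nuclear deacetylase, stood at 418, 365 and 397 CPM in the libraries labelled RY, against 93.9 and 109 CPM in the KO libraries (3.88-fold higher, log2 fold change 1.96, SE 0.10, adjusted p = 3.56e-09). HDAC1, its partner in the same complexes, stood at 249.7, 229 and 254 CPM in the libraries labelled RY, against 85.5 and 90.1 CPM in the KO libraries (2.78-fold higher, log2 fold change 1.48, SE 0.08, adjusted p = 9.81e-09). SIRT5, a mitochondrial enzyme, was 4.62-fold lower. Of 29 known partners and substrates of HDAC6, 3 were higher, 7 lower and 19 not called. PRDX1, a peroxide-removing enzyme and HDAC6 substrate, was at 0.384, 0.298 and 0.34 CPM in the libraries labelled RY, against 438 and 546 CPM in the KO libraries (1441-fold lower, log2 fold change -10.48, SE 0.16, adjusted p = 3.29e-13). PRDX2, its relative, was 2.59-fold lower. SQSTM1, the autophagy receptor p62, was at 56.6, 58 and 58 CPM in the libraries labelled RY, against 421 and 522 CPM in the KO libraries (8.18-fold lower, log2 fold change -3.04, SE 0.10, adjusted p = 5.14e-11). HSP90AA1, a chaperone that HDAC6 deacetylates, was 2.33-fold higher, but 1.86-fold without KO replicate 1, under the minimum.

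Many endoplasmic reticulum folding genes were lower in RY. Of 29 tested, 16 were lower, 0 higher and 13 not called, with a median log2 fold change of -1.26, and sums of 6740 to 6810 CPM in RY and 14597 to 14910 CPM in KO. Of all genes tested, 25.8% were called lower and 24.9% higher, and 27.3% of those from 100 CPM up were called in either direction. HSPA5, the main chaperone of that compartment, stood at 339, 320.5 and 348 CPM in the libraries labelled RY, against 1313 and 1489 CPM in the KO libraries (4.18-fold lower, log2 fold change -2.06, SE 0.09, adjusted p = 8.22e-10). SSR3, part of the translocon, was 4.57-fold lower, and CANX, which holds glycoproteins while they fold, 2.61-fold lower. Among stress factors, the sensor genes ERN1 and ATF6 were lower. ERN1, which encodes IRE1, stood at 10.7, 11.9 and 10.9 CPM in the libraries labelled RY, against 322 and 189 CPM in the KO libraries. ATF6 stood at 14.4, 15.7 and 14.6 CPM in the libraries labelled RY, against 137 and 128 CPM in the KO libraries. PHGDH, the first enzyme of serine synthesis, was higher, at 529, 472 and 511 CPM in the libraries labelled RY, against 42.6 and 21.1 CPM in the KO libraries, though its fold of 15.6 was 23.8 without KO replicate 1. Most proteasome genes were not called, with 1 of 31 higher, 2 lower and a median of 0.00, to be read against the same shares. PSMA4, a core subunit, was 3.77-fold higher, and PSMD4, a ubiquitin receptor of the cap, 2.94-fold lower.

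More genes of antigen presentation and of the interferon response were lower than higher. Of 18 class I genes 7 were lower and 1 higher. ERAP2, a peptide-trimming enzyme, was 6.6-fold lower. Of 12 class II genes tested 8 were lower and 1 higher. CIITA, the master regulator of class II genes, stood at 0.358, 0.372 and 0.216 CPM in the libraries labelled RY, against 4.69 and 4.61 CPM in the KO libraries. HLA-DRA, a class II chain, stood at 0.691, 0.67 and 0.989 CPM in the libraries labelled RY, against 10.5 and 13.1 CPM in the KO libraries. Of 45 interferon-stimulated genes tested 20 were lower and 11 higher, and the large changes went both ways. MX1, an antiviral GTPase, stood at 4.56, 4.59 and 4.2 CPM in the libraries labelled RY, against 137 and 162 CPM in the KO libraries (33.4-fold lower, log2 fold change -5.07, SE 0.10, adjusted p = 1.41e-12). IFITM2, a membrane protein that blocks viral entry, stood at 202, 198 and 199 CPM in the libraries labelled RY, against 1.36 and 1.88 CPM in the KO libraries (124-fold higher, log2 fold change 6.95, SE 0.13, adjusted p = 8.92e-13). OAS3, a sensor of double-stranded RNA, was 12.3-fold higher.

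Most cell cycle genes were not called, and most of those called were higher in RY. Of 36 genes of G1/S and replication 9 were higher and 1 lower, or 10 of 36, where 50.7% of all genes were called. Among genes from 100 CPM up the share called was 27.3%, so the count for this list of abundant genes is not read as low. CDK6, a kinase that starts the cycle in blood cells, stood at 769.5, 837 and 767 CPM in the libraries labelled RY, against 206 and 239 CPM in the KO libraries (3.57-fold higher, log2 fold change 1.83, SE 0.10, adjusted p = 5.98e-09). RB1, a tumour suppressor that holds the cycle back, was 2.61-fold higher. Of 30 mitosis genes 5 were higher and 1 lower. MKI67, the proliferation antigen, stood at 1555, 1396 and 1397 CPM in the libraries labelled RY, against 209 and 287 CPM in the KO libraries (5.87-fold higher, log2 fold change 2.54, SE 0.14, adjusted p = 6.25e-09). BIRC5, survivin, was the mitosis gene that was lower (2.4-fold lower, adjusted p = 6.63e-07). Among BCL2 family genes 4 were higher and 6 lower of 15. BCL2 itself, which blocks cell death, was at 391, 340.0 and 358 CPM in the libraries labelled RY, against 153 and 125 CPM in the KO libraries (2.6-fold higher, log2 fold change 1.38, SE 0.10, adjusted p = 1.43e-07). BCL2L1, which encodes BCL-xL, was 2.63-fold lower and the killer protein gene BCL2L11 3.95-fold lower. In the NF-kappaB list, 2 of 19 were higher and 4 lower. TRAF3, an inhibitor of the noncanonical branch, was 4.86-fold higher, and MAP3K14, the kinase it restrains, 3.18-fold lower.

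Adhesion, motility and cytokine receptor genes changed in both directions. Of 24 integrin and adhesion genes tested 10 were higher and 11 lower, or 21 of 24, where 50.7% of all genes were called. ICAM1 was 13-fold lower and ICAM3 3.83-fold lower, both ligands of integrins that contain ITGB2. Of 28 actin and motility genes 8 were higher and 7 lower. MSN, the membrane linker moesin, stood at 1833, 1608 and 1685 CPM in the libraries labelled RY, against 396 and 487 CPM in the KO libraries (3.88-fold higher, log2 fold change 1.95, SE 0.12, adjusted p = 1.38e-08). TMSB4X, which binds actin monomers, was 3.75-fold higher, and TAGLN2 2.78-fold lower. Of 26 chemokine and cytokine receptor genes tested 12 were lower and 8 higher. CXCL12, a chemokine that holds plasma cells in marrow, had 0, 0.0248 and 0.0309 CPM in the libraries labelled RY, against 204 and 178 CPM in the KO libraries. IL6ST, the signalling chain for interleukin 6, was 12.7-fold lower, and CSF2RB, the shared chain of the GM-CSF receptor, 8.53-fold lower.

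Most genes of the metabolic and chromatin lists were not called. The same was so for abundant genes in general, of which 38.9% were called between 10 and 100 CPM and 27.3% from 100 CPM up. Of 45 ribosomal protein genes 3 were lower and 0 higher, and of 36 oxidative phosphorylation genes 2 were higher and 2 lower. Of 19 cholesterol synthesis genes 6 were lower and 0 higher, among them FDPS (3.66-fold lower, adjusted p = 1.48e-09) and DHCR7 (2.68-fold lower, adjusted p = 1.26e-08). Of 27 histone and DNA methylation enzymes tested 8 were higher and 1 lower. DOT1L, a methyltransferase of histone H3, stood at 523, 742 and 598 CPM in the libraries labelled RY, against 208 and 253 CPM in the KO libraries (2.72-fold higher, log2 fold change 1.43, SE 0.14, adjusted p = 1.69e-06). KDM1A, a demethylase, was 2.44-fold higher. Of 26 lysosomal and antioxidant genes tested 7 were higher and 6 lower. GSTP1, a glutathione transferase, had 390.5, 355 and 378 CPM in the libraries labelled RY, against 0.0579 and 0.738 CPM in the KO libraries, and its fold of 964.7 was 507 without KO replicate 1 and 6457 without KO replicate 2. PRDX5 was 3.58-fold lower and GPX4, which removes lipid peroxides, 2.57-fold higher. Among 7 cancer-testis antigens tested 5 were lower and 2 higher. MAGEA1, an antigen of myeloma and other tumours, had 0 CPM in each library labelled RY, against 59.1 and 67.6 CPM in the KO libraries.

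Median fold changes differed between chromosomes. Among 13299 protein-coding genes on chromosomes 1 to 22 and X, the median log2 fold change was 0.02. By chromosome it was highest on chromosome 10 (0.73, 203 genes higher and 71 lower of 496) and chromosome 13 (0.64), and lowest on chromosome 16 (-0.78, 101 higher and 252 lower of 624). Scaled by library size alone, every median moved up by about 0.15, to 0.88 on chromosome 10 and -0.63 on chromosome 16. A change of scaling shifts all genes nearly alike, so it is no test of the order of chromosomes. In 256 consecutive stretches of 50 genes, 17 had a median above 0.8 and 15 one below -0.8. The highest was the first stretch of chromosome 22, 17084954 to 21637327, at 1.66 with 41 genes higher and 4 lower. The lowest was on chromosome 9, 133356552 to 136955497, at -1.45 with 1 gene higher and 32 lower. On chromosome 6, the 4 stretches from 87408012 to 152983579 had medians of 1.10 to 1.35.

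**Figure D5:**
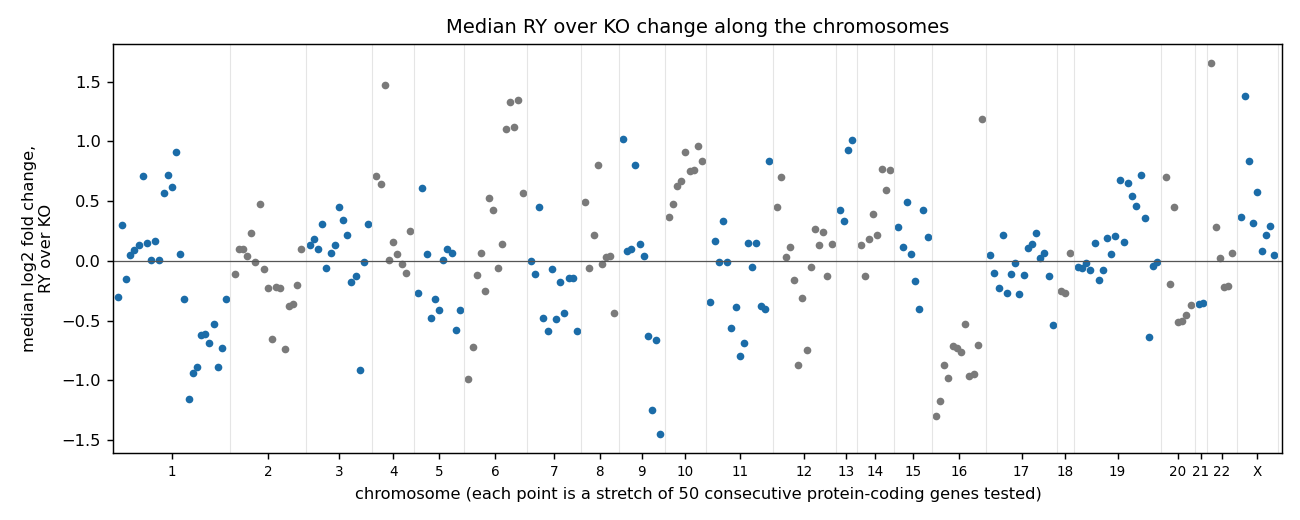
Median log2 fold change, RY over KO, in each of 256 stretches of 50 consecutive protein-coding genes tested, in genome order, with chromosomes in alternating colours. Most stretches of chromosome 16 lie at -0.5 or below and its last at 1.19, the first stretch of chromosome 22 is the highest point at 1.66, and chromosome 10 lies above 0 throughout.

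Medians on either side of 3 genes differed, and these boundaries were chosen after the values were seen. Before MAF on chromosome 16, 543 genes had a median log2 fold change of -0.88, with 65 higher and 241 lower, and after it 80 genes had one of 0.90, with 36 higher and 10 lower. The nearest 20 genes on either side had medians of -0.33 and 1.57. Before the lambda constant gene IGLC2 on chromosome 22, 58 genes had a median of 1.77, with 48 higher and 4 lower, and after it 265 genes had one of -0.14. Before HDAC6 on the X chromosome, 128 genes had a median of 1.00, with 64 higher and 16 lower, and after it 324 genes had one of 0.20. The median over the 20 genes nearest to HDAC6 was 1.07 before it and 0.26 after it. Copy number was not measured in these files, and its part in these medians was not tested.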

How the data were processed

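Bulk RNA-seq was compared between 3 libraries labelled RY and 2 labelled KO. The deposited values are raw read counts per gene, made by the authors and not normalized. Among the tools in the submitters' processing notes are STAR 2.7.4 and HTSeq 0.9.1, with FastQC and edgeR 1.34.1, and the build is GRCh38. The annotation release and the strand setting of the counting are not given in the sources used here. Of 60666 gene IDs, 42023 were paired with a symbol and 58420 with a position in GENCODE on GRCh38, and promoters came from RefSeq on GRCh38.p14. Counting error limits precision at the floors given with the library totals, and intervals are at 95%.

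Groups were taken from sample titles. edgeR 4.0.16 in R 4.3.3 (TMM scaling, filterByExpr with a minimum count of 10, quasi-likelihood test, residual degrees of freedom 3, Benjamini-Hochberg adjustment over all genes tested) gave every adjusted p in the text, and the steps were tested on simulated data. A gene was called at an adjusted p under 0.05 with a fold of at least 2. Printed folds are pooled reads over scaled library sizes, log2 fold changes and SEs are those of the fit, with the SE taken from the F statistic. A group with 0 reads was set to 3 reads over the group for a lower bound.

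Named genes were HDAC6, the 8 largest increases and decreases that averaged 5 CPM or more where higher, did not overlap between groups and had a symbol other than a clone or LINC name, members of lineage lists, up to 4 called members of each pathway list by CPM (the 2 most abundant where fewer than 2 were called), genes in runs and the 6 called genes of highest CPM in each group. Members and lists were chosen with earlier results of these data known. Genes on chromosome Y and some other items are not reported here. Near-identical copies and antisense genes may share reads. The alternatives were other scalings and filters, DESeq2 1.42.0, glmTreat, all 7 libraries in one fit, a replicate block and leaving out each library.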

Additional observations from a re-analysis of the deposited data

How the results depend on the processing

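HDAC6 was called under all 14 alternatives, with a log2 fold change of 2.38 to 2.93. Leaving out each library in turn gave 8724 to 9264 calls, against 8965. With a library left out, genes called higher in RY numbered 4161 to 4551, against 4408, and genes called lower in RY 4335 to 4713, against 4557. Of the main calls, 8931 were also made with RLE size factors, 8904 with upper-quartile scaling and 8669 in DESeq2, which made 8706. With library size alone all genes moved by 0.15 on the log2 scale, 54.1% of calls were higher in RY and the medians became 0.88 on chromosome 10 and -0.63 on chromosome 16. A test against a fold of 2 (glmTreat) made 7612 calls, and a minimum mean of 1 CPM left 13729 genes and 6201 calls. List members called higher numbered 178 to 193 and lower 215 to 219 when a library was left out.

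Genes on in RY and off in KO numbered 83 with an off limit of 0.05 CPM, 321 with one of 0.5 CPM, 259 with an on limit of 5 CPM and 66 with one of 20 CPM, against 149. Leaving out a library gave 161 to 218. Genes on in KO and off in RY numbered 239 with an on limit of 20 CPM and 350 to 367 without 1 library, against 360. Of 310 named genes besides HDAC6, 28 changed their call under at least 1 alternative, and no call reversed its direction. Folds of genes not called in the main fit could do so, as for PDGFRB, CD14, EOMES and S100A9 when a library was left out.

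Replicate numbers do not pair these libraries by the labels. Deviations of same-numbered RY and KO libraries from their group means correlated at -0.128 and -0.208, over 2 pairs with RY replicate 3 left unpaired. With only 2 KO libraries, the deviations of one are those of the other with the sign turned. The values for the 2 pairs are therefore not independent and cannot show whether libraries share a batch. With the replicate block, 8607 genes were called, 8532 of them shared with the fit without it, on 1 residual degree of freedom, and HDAC6 stayed called.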
